A study of Mus musculus with 36 samples.

Results

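The genes described here are 9 genes of MHC class II antigen presentation, taken by name from the 52636 genes of the count tables: H2-Aa, H2-Ab1, H2-Eb1, H2-DMa, H2-DMb1, Cd74, Ciita, Cd86 and Cd80. They were measured by bulk RNA sequencing in 36 libraries, 3 for each of 12 groups. The libraries came from whole intestines of E18.5 mouse embryos, in 2 sets of 18 and 12, and from mouse embryonic fibroblasts (MEFs, 6 libraries), and the study asked what caspase-8 and its partner cFLIP restrain in these tissues. All 9 genes had enough reads to be tested in both sets of intestines, and 6 of the 9 had enough in MEFs.

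The first set of 18 intestines centred on Casp8 1xDA, the D387A change at the site where caspase-8 cuts itself. Its groups were Mlkl-/- controls, embryos with Casp8 1xDA/1xDA alone, and 4 genotypes built on that allele. The first of these carried Casp8 1xDA/1xDA Cflar-/- Mlkl-/- and is called cFLIP-deficient 1xDA. Casp1-/- was added to it in the next genotype (cFLIP- and caspase-1-deficient 1xDA), and either Ifnar1-/- or Fadd-/- was further added in the remaining 2. The second set of 12 intestines centred on C362A, which replaces the catalytic cysteine of caspase-8. It held Mlkl-/- controls of its own and embryos with Casp8 C362A/C362A Mlkl-/-, either without a further change, or with Casp1-/- (caspase-1-deficient C362A), or with Cflar-/- (cFLIP-deficient C362A). MEFs were Mlkl-/- or cFLIP-deficient 1xDA, with the same alleles as the intestines of that name. By label every group was deleted for Mlkl, which encodes MLKL, the executioner of necroptosis, except Casp8 1xDA/1xDA, which kept it. Cflar encodes cFLIP, Casp1 the inflammatory protease caspase-1, Ifnar1 a chain of the type I interferon receptor and Fadd the adaptor that recruits caspase-8. The Cflar and Mlkl deletions of the D387A line went back to a single mosaic founder. The C362A line carried a different, smaller Cflar deletion that was made separately. The labels call the libraries biological replicates.

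Libraries held 17943524 to 32307629 reads on genes, with a median of 24334001. Casp1 was at or under 0.212 CPM (counts scaled to library size) in the 12 libraries labelled Casp1-/- and at 42.5 CPM or more in the other intestines. Fadd was at 0.658 to 1.01 CPM where the label said Fadd-/- and at 25.4 CPM or more in the other intestines. Ifnar1 kept 33.2 to 37.9 CPM in Ifnar1-/- intestines, against 76.1 CPM or more elsewhere in the intestines. The gene totals of Mlkl and Cflar did not follow the labels. Mlkl was at 10.9 to 13.9 CPM in Casp8 1xDA/1xDA intestines, at 2.13 to 5.35 CPM in the controls labelled Mlkl-/-, and at 18.3 to 62.5 CPM in mutants labelled Mlkl-/-, save for 6.27 and 7.46 CPM in the first 2 cFLIP- and caspase-1-deficient 1xDA embryos. Cflar was at 33.8 to 59.4 CPM in intestines labelled Cflar-/- and at 43.9 to 72.5 CPM in the others. Counts per gene do not show whether reads fell in the deleted part, so these 2 labels were not checked. The cFLIP- and caspase-1-deficient 1xDA embryos were not alike. The summed level of the 9 genes was 180 CPM in the third, against 89.6 and 89.1 CPM in the other 2. Its macrophage marker sum was 791 CPM against 498 and 478 CPM. By Mlkl, at 46.0 CPM, the third embryo lay within the 18.3 to 62.5 CPM of the other mutant intestines labelled Mlkl-/-. The first 2, at 6.27 and 7.46 CPM, lay under that range and nearer to the controls at 2.13 to 5.35 CPM. These values do not settle which of the embryos were atypical for their genotype. Calls that rest on the third embryo are given with and without it, and fits without it rest on the first 2.

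MHC class II molecules carry peptides from the endosome to the surface of dendritic cells, macrophages and B cells, where CD4 T cells read them. H2-Aa pairs with H2-Ab1 to form I-A, and H2-Eb1 encodes the beta chain of I-E. H2-Ea, the alpha chain gene of I-E, is annotated as a polymorphic pseudogene, so levels of H2-Eb1 are not levels of I-E. Cd74, the invariant chain, fills the groove until H2-DM, built from H2-DMa and H2-DMb1, exchanges its remnant for peptide. Ciita is the coactivator that switches these genes on, through factors held on an X box and a Y box of their promoters, and interferon gamma is its best known inducer. Cd86 and Cd80 are the costimulatory ligands that CD28 and CTLA4 bind on T cells, and their genes lie outside the class II cluster. Enterocytes can also express class II molecules. In a whole intestine, fewer cells of a type and less RNA per cell cannot be told apart.

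The 5 class II chain genes lie close together on chromosome 17 of GRCm38: H2-DMa (chr17:34119541-34139101, plus strand), H2-DMb1 (chr17:34153072-34160230, plus), H2-Ab1 (chr17:34257689-34269419, plus), H2-Aa (chr17:34282744-34287823, minus) and H2-Eb1 (chr17:34305867-34316674, plus). Ciita (chr16:10480059-10528418, plus), Cd86 (chr16:36603869-36666081, minus) and Cd80 (chr16:38455561-38496335, plus) lie on chromosome 16. Exons of H2-DMa share 360 bases with Brd2 on the opposite strand, and those of Ciita share 329 bases with Dexi, also opposite. Whether reads were counted by strand is not given in the sources used here, so reads in those stretches may belong to either gene. H2-DMb1 and H2-DMb2 are close copies.

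RefSeq promoter windows (GRCm38.p6, 250 bases before to 50 after the start) were found for 5 of the 9 genes and for 4 of 5 further class II genes. They are shown because class II genes are known to share an X box and a Y box. Capitals mark the core of the X1 box (letters ACNGATG) and the Y box (letters ATTGG) on the strand of the gene:
H2-Eb1: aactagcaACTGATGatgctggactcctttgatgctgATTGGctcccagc
H2-DMb1: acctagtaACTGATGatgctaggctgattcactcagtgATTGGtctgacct
H2-DMb2: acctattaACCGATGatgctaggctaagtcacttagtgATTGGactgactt
H2-Eb2: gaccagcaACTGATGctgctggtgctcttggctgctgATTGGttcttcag
The stretches lie at chr17:34305771-34305820, chr17:34153092-34153142, chr17:34145121-34145171 and chr17:34325538-34325587, all on the plus strand, and 22 or 23 bases separate the motifs. The H2-Aa window holds the Y box on the strand of the gene and the X1 letters only on the other strand. Before its Y box lies the palindrome TGACGTCA, a motif searched after its letters had been read (chr17:34287859-34287905, minus strand; 18 bases between):
H2-Aa: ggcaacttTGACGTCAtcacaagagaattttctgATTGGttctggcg
Of 32851 windows, 5.04% held the X1 letters and 22.1% the Y letters on the strand of the gene (5.11% and 21.1% on the other), and 1.79% held TGACGTCA. X1 followed by Y at 15 to 30 bases was found in 23 windows (0.07%), against 22 (0.067%) on the other strand. The 23 comprised the 4 class II windows printed above, 5 of other H2 genes and 14 outside the family. The windows of H2-Aa, H2-DMa, Cd80, H2-Oa and H2-Ob did not hold the spaced pair. These are matches of letters and not measured sites.

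In Mlkl-/- intestines of the D387A set the genes spanned a wide range of levels, given here as RPKM (reads scaled to gene length and library size), the mean ± SD of 3 embryos. Cd74 was highest at 66.8 ± 6.53 RPKM. H2-Aa (28.9 ± 1.73) and H2-Ab1 (28.5 ± 1.40) followed and overlapped each other, and H2-Eb1 was at 19.1 ± 0.869 RPKM. The H2-DM chains were lower, H2-DMa at 5.24 ± 0.213 and H2-DMb1 at 2.87 ± 0.367 RPKM. Cd86 (0.889 ± 0.0560), Cd80 (0.539 ± 0.0586) and Ciita (0.323 ± 0.0194) were each under 1 RPKM. The Mlkl-/- intestines of the C362A set had the same order, with overlap between H2-Aa, H2-Ab1 and H2-Eb1, between Cd86 and Cd80, and between Cd80 and Ciita. Of those 3 controls the first was lowest for each of the 9 genes.

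**Figure D1:**
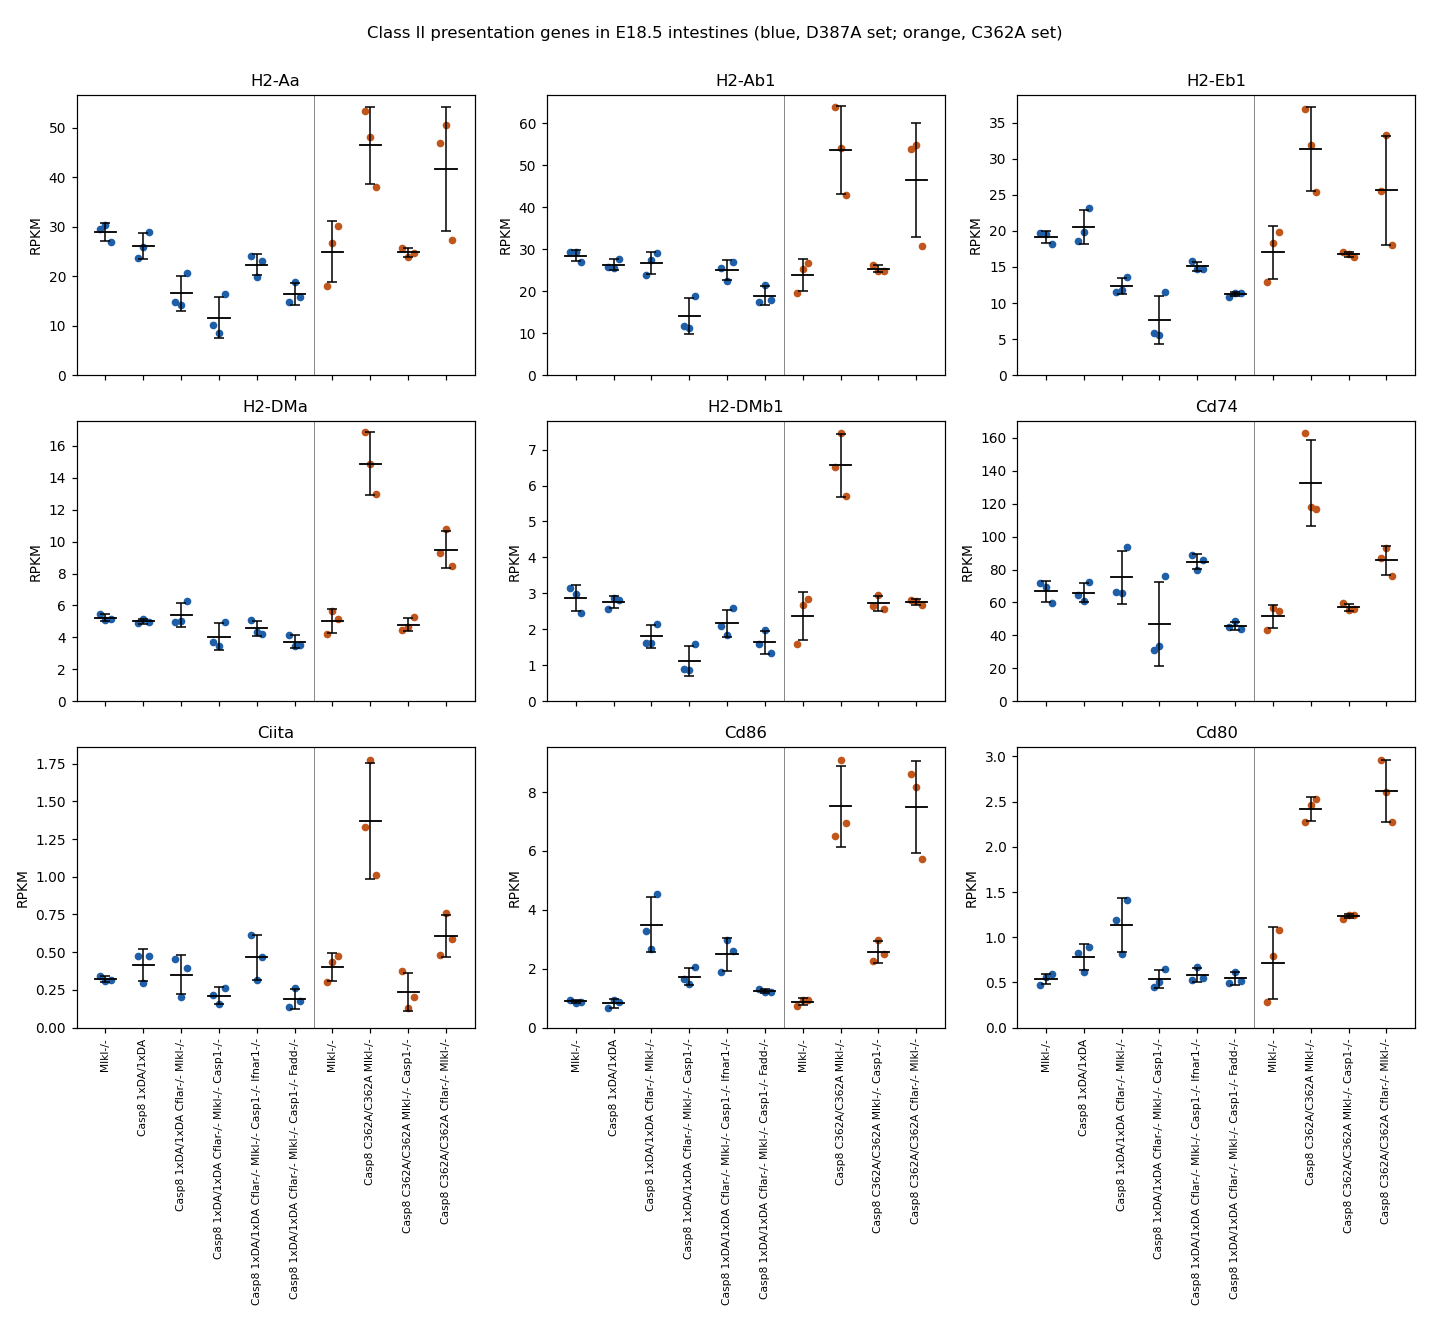
Level of each gene (RPKM, linear axes from 0) in every E18.5 intestine by genotype, with D387A embryos in blue and C362A embryos in orange, and with the mean as a line and the SD as a bar (n = 3). Cd86 of Casp8 C362A/C362A Mlkl-/- intestines lies between 6.52 and 9.10 RPKM, above its controls at 0.738 to 0.944, and H2-Ab1 is lowest in cFLIP- and caspase-1-deficient 1xDA intestines.

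In Casp8 1xDA/1xDA intestines none of the 9 genes passed the test. Here and below a gene was called when its log2 fold change was over 1 in size and its adjusted p was under 0.05 in edgeR's quasi-likelihood test, adjusted over every gene tested. Over all 18360 genes tested, 0.00545% were called in either direction. None of the 9 had an unadjusted p under 0.05, against 5.02% of all genes, and limma-voom and DESeq2 also called 0. Cd80 had the largest estimate, a log2 fold change of 0.52 (edgeR adjusted p = 0.966), with 0.828, 0.613 and 0.889 RPKM against 0.474, 0.556 and 0.588 RPKM in controls. These groups did not overlap.

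In cFLIP-deficient 1xDA intestines the 2 costimulatory genes rose, while no class II chain gene passed both thresholds. The 2 of 9 genes called higher stand against 9.4% of all genes. The median log2 fold change of the 9 was 0.05, against -0.01 over all genes.

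Cd86 was at 3.30, 2.67 and 4.53 RPKM in the mutants and at 0.952, 0.848 and 0.866 RPKM in controls. Every mutant lay above every control. It rose 3.94-fold (log2 fold change 1.98, SE 0.214, edgeR adjusted p = 4.5e-07). Cd80 was at 1.19, 0.814 and 1.41 RPKM, all above the controls, and rose 2.11-fold (log2 fold change 1.08, SE 0.239, edgeR adjusted p = 0.000868). Without the third mutant embryo Cd80 had a log2 fold change of 0.90 and was no longer called.

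The estimates of the class II chains ran from -0.81 (H2-Aa) to 0.05 (H2-DMa) in the same intestines. H2-Aa was at 14.8, 14.1 and 20.5 RPKM, all under the controls at 29.5, 30.3 and 27.0 RPKM. Its log2 fold change was -0.81 (SE 0.188, edgeR adjusted p = 0.00129), within the fold threshold. H2-Ab1, the partner chain, was at 23.9, 27.3 and 29.1 RPKM against 29.2, 29.3 and 26.9 RPKM. Those ranges overlapped, and its log2 fold change was -0.09, with a 95% interval of -0.38 to 0.20 (edgeR adjusted p = 0.63). H2-Eb1 gave -0.64 (edgeR adjusted p = 0.00669) and H2-DMb1 gave -0.66 (edgeR adjusted p = 0.0131), again under the fold threshold. By the adjusted p alone these 3 of 9 genes were lower, against 29.5% of all genes. H2-DMa (0.05), Cd74 (0.18) and Ciita (0.12) had log2 fold changes near 0 with adjusted p from 0.542 to 0.779.

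In cFLIP- and caspase-1-deficient 1xDA intestines 4 of the 9 genes fell against Mlkl-/- controls, all of them class II chains, where 2.18% of all genes were called lower. The median log2 fold change of the 9 was -0.62, against 0.02 over all genes. None of these 4 was called in the direct comparison with cFLIP-deficient 1xDA intestines (log2 fold change -0.51 for H2-Aa, -0.69 for H2-Eb1 and H2-DMb1, and -0.94 for H2-Ab1).

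H2-Aa was at 10.1, 8.45 and 16.3 RPKM, and fell 2.49-fold (log2 fold change -1.32, SE 0.192, edgeR adjusted p = 0.000197). H2-Eb1 was at 5.91, 5.54 and 11.5 RPKM against 19.7, 19.6 and 18.1 RPKM in controls (log2 fold change -1.33, edgeR adjusted p = 0.00017). H2-DMb1, at 0.906, 0.864 and 1.59 RPKM, had a log2 fold change of -1.36 (edgeR adjusted p = 0.000603). For each of these genes all 3 mutants were under all 3 controls, and the third mutant was the highest. Without it the log2 fold changes were -1.64 (H2-Aa), -1.74 (H2-Eb1) and -1.69 (H2-DMb1).

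H2-Ab1 was at 11.8, 11.2 and 18.9 RPKM (log2 fold change -1.03, SE 0.153, edgeR adjusted p = 0.00023). That estimate sat at the threshold, and without the first or the second mutant embryo it was -0.92 or -0.89, and without the third -1.30. Cd74 was at 31.0, 33.6 and 76.2 RPKM against 59.4 to 71.8 RPKM in controls, with the third embryo above every control (log2 fold change -0.51, edgeR adjusted p = 0.141). Without that embryo its log2 fold change was -1.05. Cd86 was at 1.66, 1.49 and 2.05 RPKM, all above the controls, with a log2 fold change of 0.96 (edgeR adjusted p = 0.00543), and Cd80 was level with controls (-0.02). Without the first control (1.01) or the second mutant embryo (1.06) Cd86 was called higher.

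Set directly against cFLIP-deficient 1xDA intestines, Casp1-/- intestines had lower Cd86 and Cd80. These were the 2 of 9 genes called lower, against 4.51% of all genes, and the 9 genes had a median log2 fold change of -0.69 against 0.03 over all genes. Cd86 fell by 1.02 on the log2 scale (SE 0.199, edgeR adjusted p = 0.000465) and Cd80 fell by 1.10 (SE 0.236, edgeR adjusted p = 0.00107). H2-Ab1 had a log2 fold change of -0.94 (edgeR adjusted p = 8e-05), and every other member also had a negative estimate, from -0.42 to -0.74. In the same comparison T and NK cell markers summed to 1.82 to 3.76 CPM against 13.6 to 22.1 CPM, and neutrophil markers to 8.45 to 17.5 CPM against 36.4 to 131 CPM, and their part in the result was not tested.

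Single embryos decided that count. Without the third cFLIP-deficient 1xDA embryo 0 of the 9 were called, with Cd86 at -0.79 and Cd80 at -0.91. Both genes were at -0.99 without the first Casp1-/- embryo, and Cd86 was at -0.92 without the second. Without the third Casp1-/- embryo 6 genes were called, with H2-Ab1 (-1.22), H2-Eb1 (-1.10), H2-DMb1 (-1.03) and Cd74 (-1.22) added. Shares of all genes in these fits were not computed.

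In cFLIP-, caspase-1- and IFNAR1-deficient 1xDA intestines 1 of the 9 genes, Cd86, was called higher than in Mlkl-/- controls, where 6.76% of all genes were called higher. Cd86 was at 1.87, 2.99 and 2.61 RPKM and rose 2.8-fold (log2 fold change 1.48, SE 0.216, edgeR adjusted p = 3.19e-05). Class II chains had log2 fold changes from -0.40 (H2-DMb1) to -0.18 (H2-Ab1), none called. Cd74 was at 88.6, 79.7 and 85.8 RPKM, above all 3 controls, with a log2 fold change of 0.34.

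Compared with the Casp1-/- genotype it was built on, the Ifnar1-/- genotype had 1 of 9 genes called higher, Ciita, against 3.28% of all genes. Ciita was at 0.613, 0.316 and 0.466 RPKM against 0.216, 0.154 and 0.263 RPKM, a 2.2-fold rise (log2 fold change 1.14, SE 0.325, edgeR adjusted p = 0.0148). It rested on 76, 41 and 58 reads against 25, 18 and 29 reads, and its call was lost without the second Casp1-/- embryo (0.95) or the first Ifnar1-/- embryo (0.89). With only the 2 groups compared in the fit, its log2 fold change was 1.14 with an edgeR adjusted p of 0.0601, again not called.

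By the adjusted p alone 6 of 9 genes were higher, against 15.5% of all genes. These were Ciita, Cd74, H2-Aa, H2-Eb1, H2-Ab1 and H2-DMb1. The chains had log2 fold changes of 0.94 (H2-Aa, edgeR adjusted p = 0.00215), 0.84 (H2-Ab1, 0.0011), 0.99 (H2-Eb1, 0.00157) and 0.96 (H2-DMb1, 0.00551), just under the fold threshold. H2-Aa was at 24.1, 19.9 and 23.0 RPKM, above the 3 Casp1-/- embryos. Without the third Casp1-/- embryo 6 genes passed both thresholds, with H2-Aa at 1.27, H2-Ab1 at 1.12, H2-Eb1 at 1.40, H2-DMb1 at 1.29 and Cd74 at 1.39. For that fit the share of all genes was not computed. Without the second Ifnar1-/- embryo H2-Aa (1.02), H2-Eb1 (1.00) and H2-DMb1 (1.06) passed as well, and without the third H2-Eb1 (1.00). The median log2 fold change of the 9 genes was 0.85, against -0.00 over all genes. H2-DMa (0.17) and Cd80 (0.12) had the smallest estimates.

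Cell type markers moved in the same comparison, and their part in the result was not tested. Ptprc, which encodes the leukocyte antigen CD45, was at 21.5 to 26.6 CPM with Ifnar1-/- and at 14.4 to 19.0 CPM without it. Macrophage and monocyte markers summed to 711 to 817 CPM against 478, 498 and 791 CPM, and dendritic cell markers to 31.2 to 33.4 CPM against 22.6 to 33.3 CPM. The sums did not overlap for T and NK cell markers (3.77 to 5.68 CPM against 1.82 to 3.76 CPM), neutrophil markers (17.98 to 28.3 CPM against 8.45 to 17.5 CPM) and epithelial markers (4932 to 5170 CPM against 3283 to 4751 CPM), all higher with Ifnar1-/-. Endothelial markers (250.3 to 283 CPM against 339 to 382 CPM) and fibroblast markers (1798 to 2128 CPM against 2400 to 2768 CPM) were lower, also without overlap. Of 10 macrophage and 6 dendritic cell markers tested, 0 were called.

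cFLIP-, caspase-1- and FADD-deficient 1xDA intestines had 0 of 9 genes called against Mlkl-/- controls, where 3.78% of all genes were called in either direction. By limma-voom and DESeq2 the count was also 0, and 8 of the 9 had an unadjusted p under 0.05, against 31.1% of all genes. By the adjusted p alone 5 genes were lower, against 8.4% of all genes: H2-Aa (-0.82), H2-DMb1 (-0.80), H2-Eb1 (-0.77), H2-Ab1 (-0.59) and H2-DMa (-0.49). H2-Eb1 was at 10.9, 11.4 and 11.3 RPKM, all under the controls. Cd86 was at 1.31, 1.19 and 1.21 RPKM, all above the controls, with a log2 fold change of 0.48 (edgeR adjusted p = 0.16). Cell type markers differed here too, and their part in the result was not tested. Macrophage and monocyte markers summed to 549 to 578 CPM against 457 to 494 CPM in controls, epithelial markers to 4844 to 5229 CPM against 3716 to 4214 CPM and fibroblast markers to 1962 to 2275 CPM against 2410 to 2590 CPM, and Ptprc was at 12.9 to 14.0 CPM against 10.7 to 12.8 CPM.

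Against the Casp1-/- genotype the loss of Fadd gave 0 calls of 9, against 3.44% of all genes in either direction, and by the adjusted p alone 0 of 9 were higher against 10.5% of all genes. Limma-voom and DESeq2 called 0 as well. Of the 9, 5 had an unadjusted p under 0.05, against 31.6% of all genes: H2-Aa (0.50), H2-Ab1 (0.44), H2-Eb1 (0.56) and H2-DMb1 (0.55) were higher and Cd86 (-0.48) lower in log2 fold change. Without the third Casp1-/- embryo 5 of 9 genes were higher by the adjusted p alone: H2-Eb1 (0.97, edgeR adjusted p = 9.32e-06), H2-DMb1 (0.89, 0.00969), H2-Aa (0.82, 0.00116), H2-Ab1 (0.71, 0.000186) and Cd74 (0.50, 0.0107, in place of -0.03). None of these 5 reached the fold threshold. The share of all genes in that fit was not computed.

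The 5 mutant groups of the D387A set shared the same 3 controls, so their values are not independent of each other.

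In Casp8 C362A/C362A Mlkl-/- intestines 7 of the 9 genes rose, where 10.4% of all genes were called higher. The 9 genes had a median log2 fold change of 1.47, against 0.02 over all genes. For all 9 genes every mutant embryo lay above every control, as for 28.4% of all genes tested.

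Cd86 rose most of the 9, from 0.738, 0.935 and 0.944 RPKM in controls to 6.52, 9.10 and 6.94 RPKM, 8.62-fold (log2 fold change 3.11, SE 0.211, edgeR adjusted p = 3.74e-08). Ciita rose 3.42-fold, from 0.301, 0.432 and 0.473 RPKM to 1.33, 1.77 and 1.01 RPKM (log2 fold change 1.77, SE 0.321, edgeR adjusted p = 0.000446). It held 193, 262 and 147 reads there against 43, 66 and 57 in controls. Cd80 also rose 3.42-fold, to 2.27, 2.47 and 2.53 RPKM from 0.281, 0.788 and 1.08 RPKM (log2 fold change 1.77, edgeR adjusted p = 0.000365).

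Both chains of H2-DM, the peptide editor, rose. H2-DMa went from 4.18, 5.68 and 5.18 RPKM to 16.8, 14.8 and 12.96 RPKM (2.96-fold, edgeR adjusted p = 2.04e-06). H2-DMb1 was at 6.51, 7.45 and 5.71 RPKM against 1.60, 2.67 and 2.85 RPKM (2.77-fold, edgeR adjusted p = 4.21e-05). Cd74 reached 163, 118 and 117 RPKM against 43.6 to 56.5 RPKM (2.57-fold, edgeR adjusted p = 3.55e-06).

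H2-Ab1 was at 63.7, 54.0 and 42.9 RPKM against 19.5, 25.3 and 26.7 RPKM, a 2.25-fold rise (log2 fold change 1.17, SE 0.201, edgeR adjusted p = 0.000294). H2-Aa, at 53.3, 48.0 and 38.0 RPKM, had a log2 fold change of 0.90 (edgeR adjusted p = 0.00402). H2-Eb1, at 36.9, 31.9 and 25.4 RPKM, had 0.89 (edgeR adjusted p = 0.00329), so both were under the fold threshold. Without the third mutant embryo each was at 1.02 and passed it.

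In caspase-1-deficient C362A intestines 1 of the 9 genes, Cd86, was called higher than in Mlkl-/- controls, against 6.79% of all genes. Cd86 was at 2.25, 2.96 and 2.49 RPKM and rose 2.94-fold (log2 fold change 1.56, SE 0.210, edgeR adjusted p = 7.75e-05). H2-Aa was at 25.8, 23.9 and 24.7 RPKM, inside the range of controls, with a log2 fold change of -0.01. The other chains and Cd74 lay between -0.07 and 0.20. Ciita was at 0.375, 0.127 and 0.202 RPKM, with a log2 fold change of -0.77 (edgeR adjusted p = 0.105). Without the first of these mutants Ciita was called lower (-1.30, edgeR adjusted p = 0.0177). Cd80 was called higher without the third control (1.17, edgeR adjusted p = 0.0145).

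Against Casp8 C362A/C362A Mlkl-/- intestines, 6 of 9 genes fell with the loss of caspase-1, where 5.72% of all genes were called lower. Ciita fell 5.82-fold (log2 fold change -2.54, SE 0.341, edgeR adjusted p = 7.1e-05). H2-DMa (-1.63, edgeR adjusted p = 4.02e-06), H2-DMb1 (-1.27, 0.000299), Cd74 (-1.22, 2.56e-05), H2-Ab1 (-1.08, 0.000989) and Cd86 (-1.55, 3.62e-05) fell too. H2-Aa and H2-Eb1, both at -0.91, and Cd80 at -0.97 had adjusted p under the threshold and estimates within the fold threshold. With the first reference embryo left out, H2-Ab1 (-0.93) was no longer called and Cd80 (-1.02) was, and with the third left out H2-Aa (-1.03) and H2-Eb1 (-1.04) passed as well. All 9 genes were lower without overlap, as were 25.7% of all genes, and their median log2 fold change was -1.22, against -0.02 over all genes.

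Leukocyte markers were also lower in these intestines, and their part in the result was not tested. Ptprc was at 16.0 to 17.1 CPM, against 43.8 to 61.4 CPM in Casp8 C362A/C362A Mlkl-/- intestines. Dendritic cell markers summed to 27.98 to 31.7 CPM against 78.0 to 91.0 CPM, with 5 of 7 called lower, and macrophage and monocyte markers to 635 to 691 CPM against 835 to 869 CPM, with 4 of 10. T and NK cell markers summed to 9.92 to 10.1 CPM against 39.96 to 41.4 CPM. Neutrophil markers, at 15.2 to 19.7 CPM against 304 to 392 CPM, fell as well, all 5 of them.

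In cFLIP-deficient C362A intestines the 2 costimulatory genes passed both thresholds against controls, where 13.4% of all genes were called higher. Cd86 was at 8.60, 8.19 and 5.71 RPKM and rose 8.59-fold (log2 fold change 3.10, SE 0.211, edgeR adjusted p = 3.28e-08). Cd80 was at 2.97, 2.61 and 2.28 RPKM and rose 3.69-fold (log2 fold change 1.88, SE 0.313, edgeR adjusted p = 0.000162). By the adjusted p alone 7 of 9 genes were higher, against 27.9% of all genes, H2-DMb1 and Ciita being the others.

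Cell type markers moved with this rise, and their part in it was not tested. Ptprc was at 28.7 to 38.8 CPM against 12.2 to 15.7 CPM in controls. Dendritic cell markers summed to 51.3 to 62.3 CPM against 19.96 to 22.5 CPM, T and NK cell markers to 25.2 to 41.5 CPM against 5.63 to 6.93 CPM, and neutrophil markers to 162 to 255 CPM against 8.60 to 23.8 CPM. Absorptive enterocyte markers summed to 2812 to 9159 CPM against 37423 to 60084 CPM.

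H2-Ab1 was at 53.7, 54.9 and 30.8 RPKM (log2 fold change 0.96, edgeR adjusted p = 0.001), all above the controls. H2-DMa was at 9.27, 10.8 and 8.46 RPKM (0.92, edgeR adjusted p = 0.000216). H2-DMb1 was at 2.82, 2.79 and 2.68 RPKM, inside the range of controls (0.22, edgeR adjusted p = 0.39). The third mutant was lowest for 8 of the 9 genes. Without the second Mlkl-/- control 4 of 9 genes passed both thresholds, with H2-Ab1 at 1.03 and H2-DMa at 1.04 added, and without the third mutant H2-Ab1 was at 1.18.

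Loss of cFLIP on top of Casp8 C362A/C362A Mlkl-/- lowered 2 of the 9 genes, against 4.62% of all genes called lower. H2-DMb1 fell by 1.25 on the log2 scale (SE 0.201, edgeR adjusted p = 0.000859) and Ciita fell by 1.17 (SE 0.310, edgeR adjusted p = 0.0173). The groups of both genes did not overlap. Without the second Casp8 C362A/C362A Mlkl-/- embryo Ciita was at -0.94, and without the first Cflar-/- embryo at -1.03 with an adjusted p of 0.067, so its call was lost in both fits of edgeR. Cd86 had a log2 fold change of -0.00, with a 95% interval of -0.36 to 0.36. H2-DMa (-0.65, edgeR adjusted p = 0.00957) and Cd74 (-0.63, 0.00722) were within the fold threshold. The 3 mutant groups of the C362A set shared 1 set of controls, and the comparisons for loss of caspase-1 and loss of cFLIP shared their reference embryos.

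**Figure D2:**
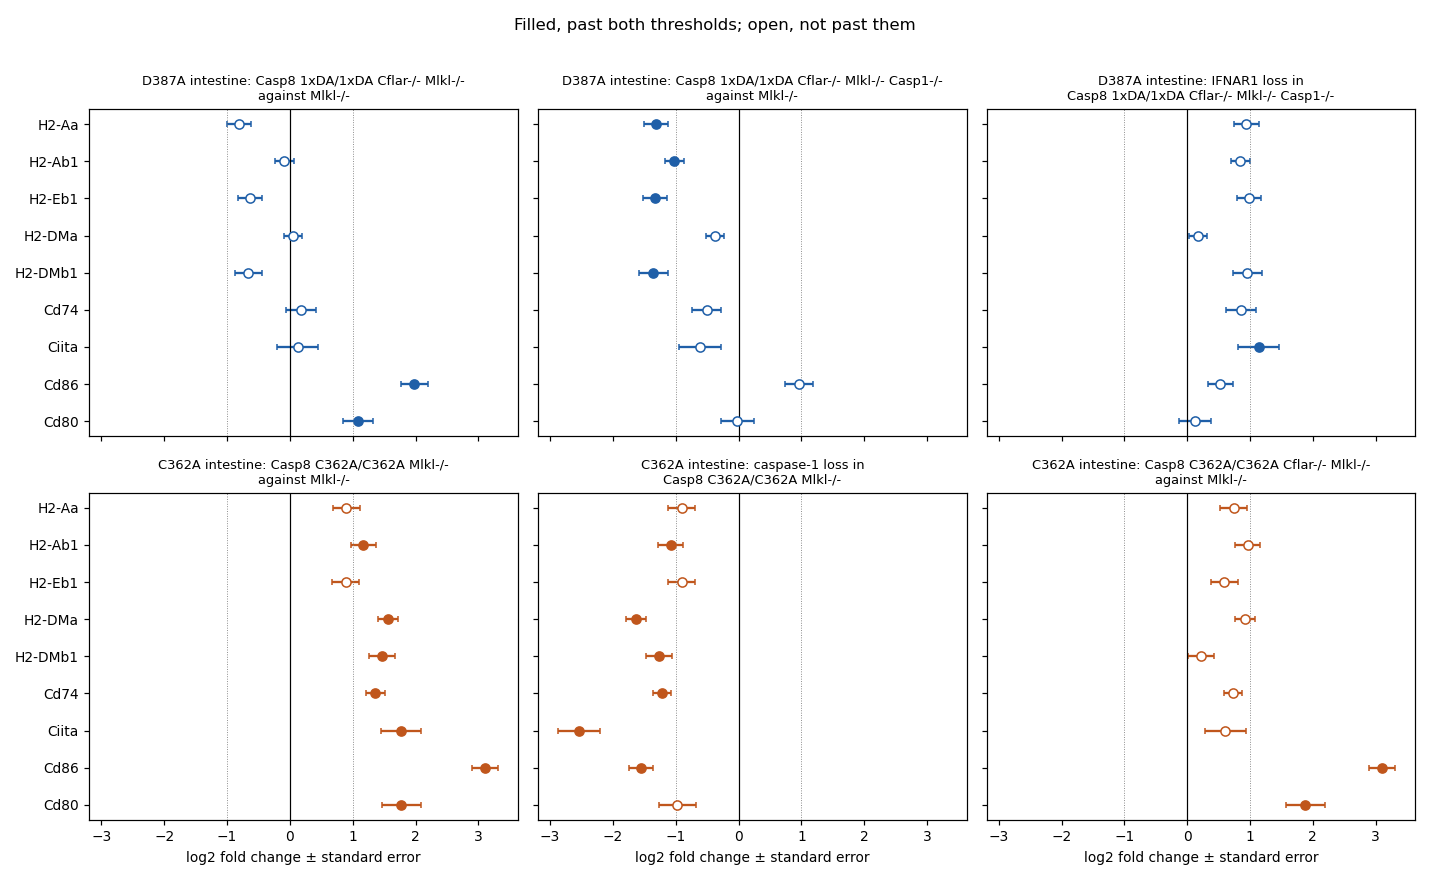
Log2 fold change of each gene with its standard error in 6 comparisons, from edgeR fits of 3 embryos per group (blue, D387A; orange, C362A). Filled points passed both thresholds and dotted lines mark a log2 fold change of 1 in either direction, which 7 genes passed in Casp8 C362A/C362A Mlkl-/- intestines and 2 in cFLIP-deficient 1xDA intestines.

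The effect of caspase-1 loss and of the full genotypes was then compared between the 2 sets by the difference of their log2 fold changes, each against its own reference. The sets differ in the Casp8 allele and in cFLIP, and their controls were separate embryos. The differences come from 1 fit over both sets and so depart slightly from a subtraction of the separate values. Caspase-1 loss differed for 2 of 9 genes, both less negative in the D387A set, against 4.9% of all genes called higher. Ciita had -0.74 in the D387A set and -2.54 in the C362A set, a difference of 1.83 (SE 0.501, edgeR adjusted p = 0.0141). H2-DMa had -0.42 and -1.63, a difference of 1.24 (SE 0.209, edgeR adjusted p = 0.000411). Without the third cFLIP- and caspase-1-deficient 1xDA embryo both calls held, at 1.65 (edgeR adjusted p = 0.0313) for Ciita and 1.06 (0.000769) for H2-DMa. For H2-Ab1 the difference was 0.16 and for H2-Eb1 0.24, and without that embryo these were -0.11 and -0.17. Cd86 differed by 0.56 (edgeR adjusted p = 0.174).

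cFLIP-deficient 1xDA and cFLIP-deficient C362A intestines, both labelled Cflar-/-, differed in their change from controls for 1 of 9 genes, against 0.0662% of all genes called lower. H2-Aa had a log2 fold change of -0.81 in the first and 0.74 in the second, a difference of -1.55 (SE 0.307, edgeR adjusted p = 0.0388). The differences for H2-Eb1 (-1.23, edgeR adjusted p = 0.0674), H2-Ab1 (-1.06, 0.0676), H2-DMa (-0.87, 0.0674) and Cd86 (-1.13, 0.0761) missed the threshold. H2-Aa itself lost its call in the fits without any D387A control, without the first or second cFLIP-deficient 1xDA embryo, without the first or second C362A control and without the first or second cFLIP-deficient C362A embryo, with adjusted p from 0.0642 to 0.167 in edgeR. Without the third C362A control H2-Ab1 (-1.15), H2-Eb1 (-1.37), H2-DMb1 (-1.04) and Cd86 (-1.20) passed beside it. Without the third cFLIP-deficient C362A embryo H2-Ab1 (-1.28), H2-Eb1 (-1.43) and Cd86 (-1.29) did, and without the third cFLIP-deficient 1xDA embryo Cd86 (-1.35).

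Ratios within a library compare chains free of how much class II RNA the intestine held. Per length, H2-Aa stood to H2-Ab1 as 1.01, 1.03 and 1.00 in the 3 D387A controls. In cFLIP-deficient 1xDA intestines the ratio was 0.619, 0.518 and 0.706, under every control. The mean was 0.614 ± 0.0943 against 1.02 ± 0.0146 (SD, n = 3; exact two-sided permutation p = 0.1, the smallest that 3 against 3 can give, and 0.15 adjusted over 12 such tests). The same ratio was also under every D387A control with Casp1-/- added (0.752 to 0.863), and with Ifnar1-/- (0.852 to 0.940) or Fadd-/- (0.845 to 0.881) further added. In Casp8 C362A/C362A Mlkl-/- intestines it was 0.871 against 1.04, and in cFLIP-deficient C362A intestines 0.894, again without overlap with controls.

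H2-Eb1 over H2-Ab1 was 0.460 ± 0.0240 in cFLIP-deficient 1xDA intestines and 0.673 ± 0.00425 in controls. It was also lower without overlap in both C362A genotypes tested, at 0.587 in Casp8 C362A/C362A Mlkl-/- and 0.556 in cFLIP-deficient C362A intestines against 0.709 in their controls. H2-DMb1 over H2-DMa was 0.332 against 0.547, also without overlap, and 0.293 against 0.467 in cFLIP-deficient C362A intestines. With Casp1-/- added to cFLIP-deficient 1xDA it was 0.244, 0.251 and 0.319, under all D387A controls at 0.475 to 0.591. It overlapped those controls where Ifnar1-/- was further added, at 0.409, 0.424 and 0.611, and where Fadd-/- was, at 0.384, 0.567 and 0.381. In Casp8 C362A/C362A Mlkl-/- intestines H2-DMb1 over H2-DMa was 0.443 and overlapped the controls (exact permutation p = 0.8). Cd74 over H2-Ab1 overlapped the controls in all 3 of these groups (exact permutation p from 0.2 to 0.4).

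**Figure D3:**
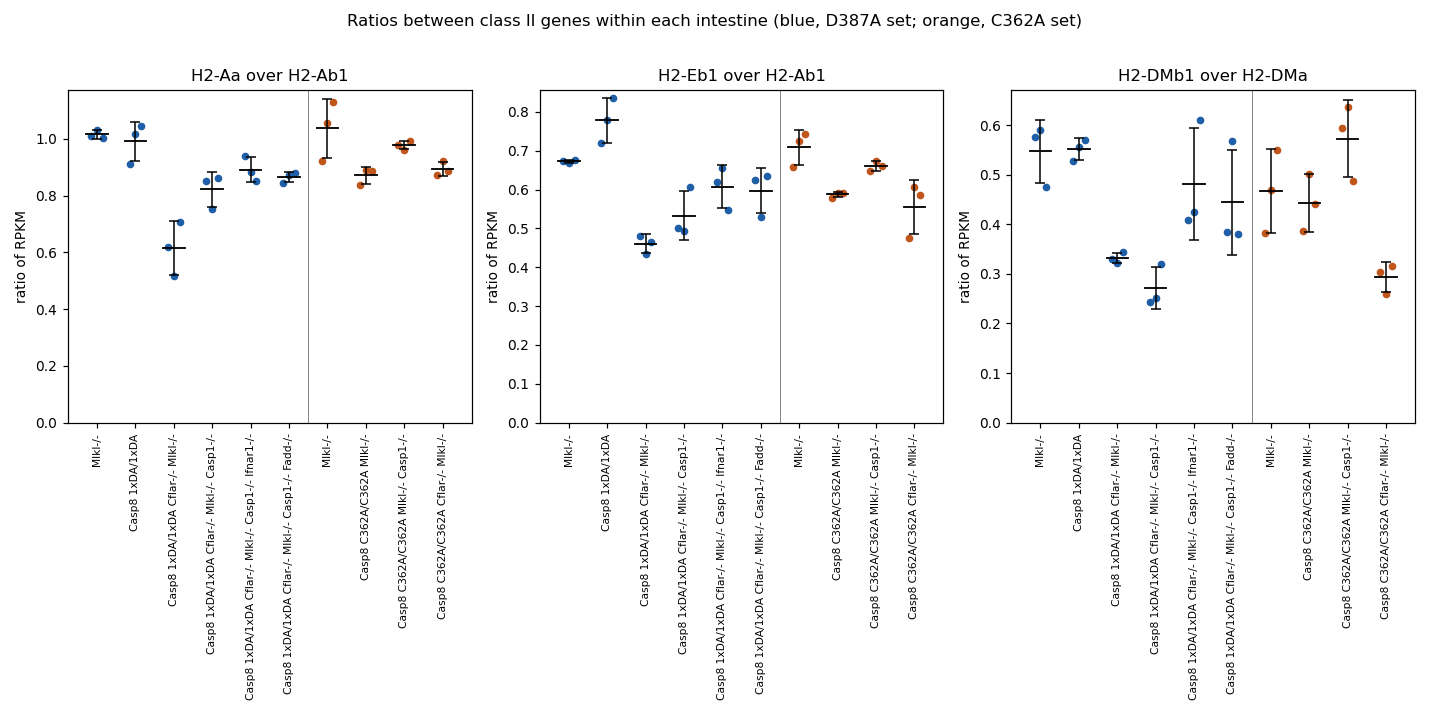
Ratio of RPKM between pairs of class II genes in each E18.5 intestine, with the mean as a line and the SD as a bar (n = 3; blue, D387A; orange, C362A). H2-Aa over H2-Ab1 lies near 1 in D387A controls and between 0.518 and 0.706 in cFLIP-deficient 1xDA intestines, the lowest of all groups.

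Cell type markers moved with these results, and their part in them was not tested. Ptprc was at 10.7 to 12.8 CPM in D387A controls, 19.3 to 31.7 CPM in cFLIP-deficient 1xDA intestines and 14.4 to 19.0 CPM with Casp1-/- added. In the C362A set it was at 12.2 to 15.7 CPM in controls and 43.8 to 61.4 CPM in Casp8 C362A/C362A Mlkl-/- intestines. H2-Ab1 per Ptprc was 12.4 ± 1.45 in D387A controls, 6.06 in cFLIP-deficient 1xDA intestines and 4.42 with Casp1-/- added. It was 8.66 in C362A controls and 5.33 in Casp8 C362A/C362A Mlkl-/- intestines. Cd86 per Ptprc was 0.387 in D387A controls, 0.766 ± 0.0801 in cFLIP-deficient 1xDA intestines and 0.556 with Casp1-/- added. It was 0.318 in C362A controls and 0.727 in Casp8 C362A/C362A Mlkl-/- intestines. In caspase-1-deficient C362A intestines H2-Ab1 per Ptprc was 7.86 and Cd86 per Ptprc 0.795. Both overlapped the values of Casp8 C362A/C362A Mlkl-/- intestines. In cFLIP-deficient C362A intestines H2-Ab1 per Ptprc was 9.59, 7.25 and 4.06 and overlapped the controls at 8.16 to 9.15, while Cd86 per Ptprc was 1.12 ± 0.393.

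Among 10 macrophage and monocyte markers, 4 rose and 1 fell in cFLIP-deficient 1xDA intestines. Itgam (log2 fold change 2.11) and Lyz2 (1.83) led, while Csf1r, the receptor that macrophages depend on, fell (-1.83). Ly6c2 was among the 4, but had few reads in Mlkl-/- intestines and entered the test through the groups where it was high. The count is therefore a description. Over all genes 9.4% were called higher and 12.8% lower. Their summed level was 447 to 604 CPM against 457 to 494 CPM in controls. Of the 10, 7 rose in Casp8 C362A/C362A Mlkl-/- intestines, where 10.4% of all genes were called higher and 7.55% lower, and the sum was 835 to 869 CPM against 414 to 491 CPM.

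Of 9 dendritic cell markers 6 could be tested in the D387A set and 7 in the C362A set. Itgax rose in cFLIP-deficient 1xDA intestines (1.63), and Siglech of plasmacytoid dendritic cells fell (-4.45). Ccr7, the receptor that guides mature dendritic cells, was also higher. Ccr7 had few reads in Mlkl-/- intestines and entered the test through the groups where it was high, so no fold change is given for it. In Casp8 C362A/C362A Mlkl-/- intestines 4 rose, Ccr7 among them, where 10.4% of all genes were called higher. Of the others Itgax (2.84) and Batf3 (2.17) led, and Siglech (-1.30) fell. The list summed to 19.2 to 21.5 CPM in D387A controls and 28.9 to 47.0 CPM in that set's Cflar-/- mutants, and to 19.96 to 22.5 CPM in C362A controls and 78.0 to 91.0 CPM in Casp8 C362A/C362A Mlkl-/- intestines.

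B cell markers summed to no more than 9.79 CPM in any intestine. T and NK cell markers summed to 4.60 to 7.003 CPM in D387A controls and 13.6 to 22.1 CPM in cFLIP-deficient 1xDA intestines, and to 39.96 to 41.4 CPM in Casp8 C362A/C362A Mlkl-/- intestines. Neutrophil markers, all 5 of which rose in both of these mutants, were at 36.4 to 131 CPM and 304 to 392 CPM.

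Absorptive enterocyte markers summed to 43102 to 49776 CPM in D387A controls and 1586 to 3494 CPM in cFLIP-deficient 1xDA intestines, with 6 of 7 genes lower. With Casp1-/- added they were at 22712 to 32206 CPM. Casp8 C362A/C362A Mlkl-/- intestines had 19006 to 23451 CPM. General epithelial markers such as Epcam and Cdh1 summed to 3716 to 4214 CPM in D387A controls and 3838 to 4043 CPM in cFLIP-deficient 1xDA intestines. Endothelial and fibroblast markers had 0 calls in these comparisons.

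**Figure D4:**
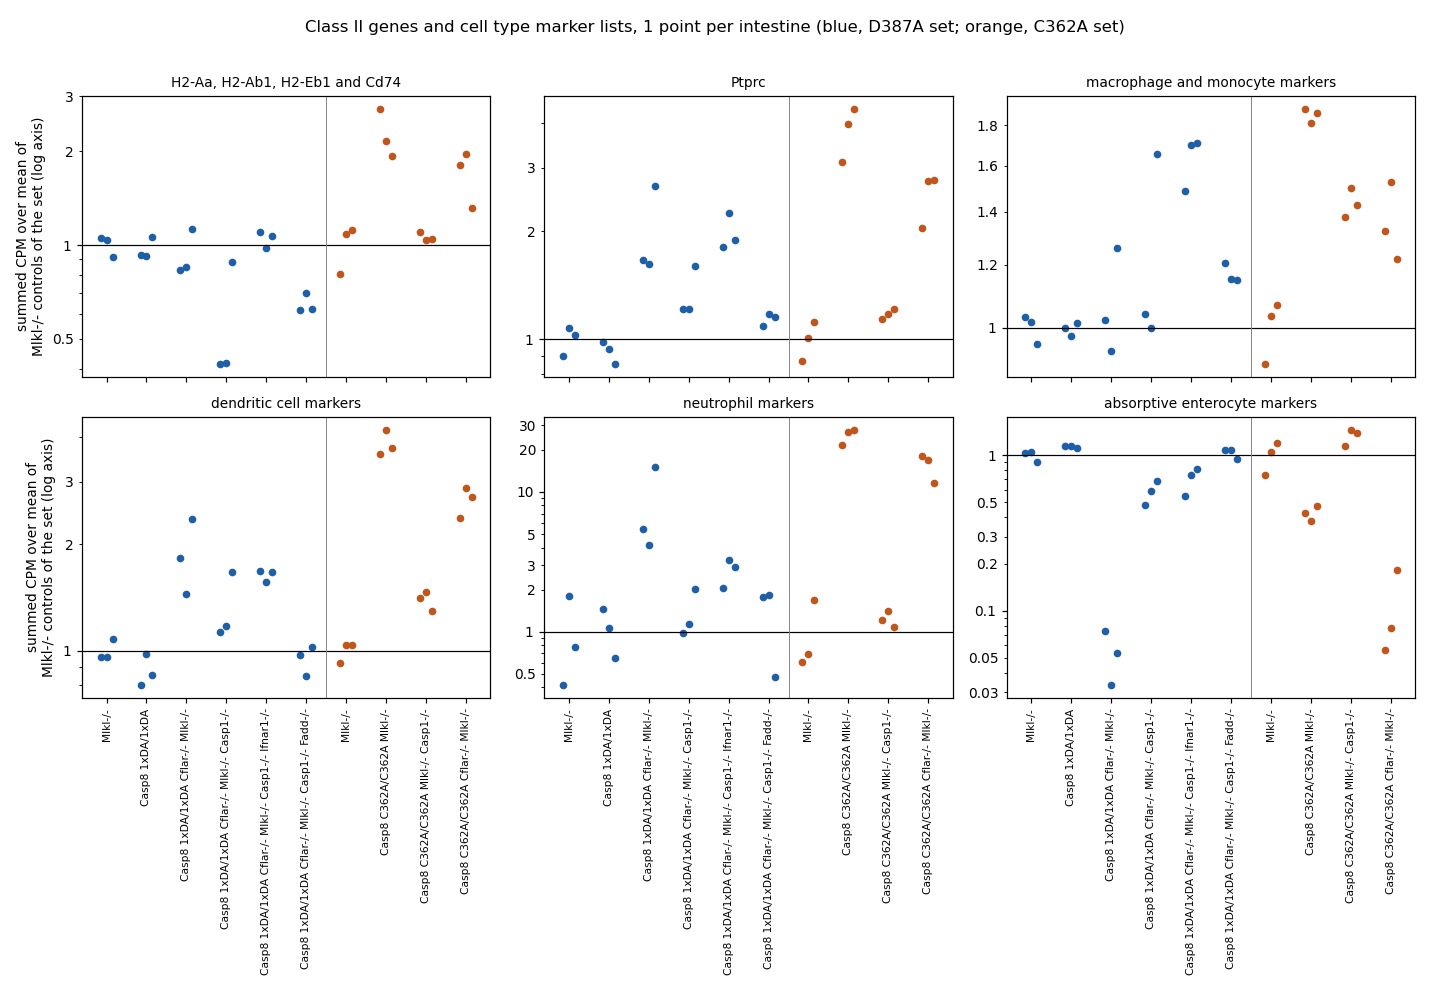
Summed CPM of 4 class II genes and of cell type marker lists in each E18.5 intestine, divided by the mean of the Mlkl-/- controls of its set (log axes; blue, D387A; orange, C362A). Neutrophil markers and Ptprc are above controls in cFLIP-deficient 1xDA intestines, absorptive enterocyte markers are far below, and the class II sum, most of it Cd74, stays near 1 where H2-Aa was at 0.571-fold.

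Other parts of the presentation pathway were read from lists of named genes. A gene with few reads in controls entered the test through the groups where it was high, such as Ccr7 and Ly6c2 with at most 10 reads in any Mlkl-/- intestine, so counts of such lists are a description. Of 5 further class II genes 2 were tested in the D387A set and 3 in the C362A set. H2-Oa, a chain of the H2-DM antagonist H2-DO, held 21, 14 and 25 reads in cFLIP-deficient 1xDA intestines against 8, 6 and 7 in controls, and 29, 25 and 27 in Casp8 C362A/C362A Mlkl-/- intestines against 8, 17 and 6. Most of its control libraries were under the minimum count of 10, so no test is given for it. H2-DMb2 rose in Casp8 C362A/C362A Mlkl-/- intestines (log2 fold change 2.55, edgeR adjusted p = 3.49e-06) and fell with loss of caspase-1 (-2.18). H2-DMb2 held 118, 116 and 107 reads in the former against 16, 21 and 18 in controls, and also rose in cFLIP-deficient C362A intestines (2.08), where H2-DMb1 did not pass.

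The 7 factors that bind class II promoters (Rfx5, Rfxap, Rfxank, Nfya, Nfyb, Nfyc and Creb1) gave 0 calls in each of the 14 genotype comparisons in edgeR. Of the interferon gamma pathway, Ifng itself had 29, 30 and 35 reads in Casp8 C362A/C362A Mlkl-/- intestines against 1, 0 and 0 in controls, and at most 4 in any other library. With loss of caspase-1 each embryo held 1 read, and with loss of cFLIP the embryos held 0, 1 and 4. The gene entered the test only through the group where it was high, so these counts are a description. In the D387A set the 3 cFLIP-deficient 1xDA embryos held 3, 2 and 4 reads of Ifng, too few to test.

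Irf1, a transcription factor that interferons induce, rose in Casp8 C362A/C362A Mlkl-/- intestines (log2 fold change 1.68, edgeR adjusted p = 5.25e-07) and stayed higher than controls in caspase-1-deficient C362A intestines (1.53, edgeR adjusted p = 3.28e-06), where the chains lay near controls. It was at 140.9, 132.8 and 140.7 RPKM in the first and 125.6, 136.6 and 112 RPKM in the second, against 35.3, 44.7 and 49.2 RPKM in controls. All 6 mutants lay above all 3 controls.

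Several genes of peptide supply fell in cFLIP-deficient 1xDA and in cFLIP-deficient C362A intestines, where 12.8% and 11.2% of all genes were called lower. In cFLIP-deficient 1xDA intestines 4 of 6 fell, led by the endosomal proteases Ctsl (-1.66), Ctsb (-1.42) and Ctsd (-1.39), and in cFLIP-deficient C362A intestines 4 of 6 fell as well. Ctss, the protease that trims the invariant chain, rose in Casp8 C362A/C362A Mlkl-/- intestines (1.72, edgeR adjusted p = 2.87e-06), and was at 0.36 in cFLIP-deficient 1xDA intestines. March1, a ubiquitin ligase that removes class II and CD86 from the surface, rose in 3 genotypes, by 1.72 in cFLIP-deficient 1xDA, 2.11 in Casp8 C362A/C362A Mlkl-/- and 1.79 in cFLIP-deficient C362A intestines.

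Of 5 further costimulatory ligands tested, 4 rose in cFLIP-deficient 1xDA intestines, led by Pdcd1lg2 (2.60), Tnfsf9 (2.59) and Cd274 (2.46), and 4 rose in Casp8 C362A/C362A Mlkl-/- intestines, led by Cd274 (4.26), Cd40 (2.24) and Pdcd1lg2 (1.81). Of all genes 9.4% and 10.4% were called higher in these 2 comparisons. Among the T cell receptors for these ligands, Ctla4 held 28, 38 and 48 reads in cFLIP-deficient 1xDA intestines, 0, 0 and 2 in controls and 1, 0 and 1 with Casp1-/- added. It held 153, 86 and 118 reads in Casp8 C362A/C362A Mlkl-/- intestines against 3, 2 and 6 in their controls. It too entered the test only through the groups where it was high, so no test is given.

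In MEFs 3 of the 9 genes had too few reads to test, and 0 of the 6 genes tested was called between cFLIP-deficient 1xDA and Mlkl-/- cells, against 0.0711% of all genes in either direction. The 6 genes had 0 with an unadjusted p under 0.05, against 6.47% of all genes, and limma-voom and DESeq2 called 0. Ciita had 1, 2 and 1 reads in Mlkl-/- MEFs and 1, 0 and 0 in mutants, and H2-Aa had 7, 16 and 6 against 2, 4 and 0. Cd86 had 5, 1 and 2 against 3, 2 and 5 reads.

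MEFs carried the fibroblast markers of their label, at 17318 to 20371 CPM in Mlkl-/- cells, while Ptprc was at 1.64 to 2.88 CPM and 3 of the 9 dendritic cell markers had 0 reads in all 3 of these libraries. The sets were scaled separately, and the labels and the study's methods name different library kits, so kit and tissue cannot be told apart where levels of MEFs and intestines are set side by side. Cd80 stood apart from the other members, at 11.6, 6.77 and 7.10 RPKM in Mlkl-/- MEFs, above every control intestine, and at 11.3, 4.94 and 5.82 RPKM in mutant MEFs. Those MEF groups overlapped, and its log2 fold change was -0.21 with a 95% interval of -0.85 to 0.42 (edgeR adjusted p = 0.941). H2-DMa was at 2.13, 1.92 and 1.66 RPKM in Mlkl-/- MEFs (-0.10 in mutants), in cells where Brd2, whose exons overlap it, was at 315 to 347 CPM. Between intestine and MEFs the change in cFLIP-deficient 1xDA differed for 1 of the 6 genes with enough reads in both, against 8.08% of all such genes, and 7.3% of all genes in the fit, called higher. H2-Aa, Ciita and Cd86 passed the filter of this fit through the intestines alone, and no result is read from them. Cd80 had 1.08 in intestine and -0.21 in MEFs, a difference of 1.32 as fitted jointly (SE 0.418, edgeR adjusted p = 0.0159). It was not called by limma-voom (1.36, adjusted p = 0.0664) or without the third mutant intestine (1.14, adjusted p = 0.0549). Beside Cd80, H2-Eb1 passed without the third Mlkl-/- MEF library (-1.495) or without the third mutant MEF library (-1.49). H2-Eb1 also passed by DESeq2 (-1.14, adjusted p = 0.0165) and with no filter (-1.09, edgeR adjusted p = 0.0494).

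**Figure D5:**
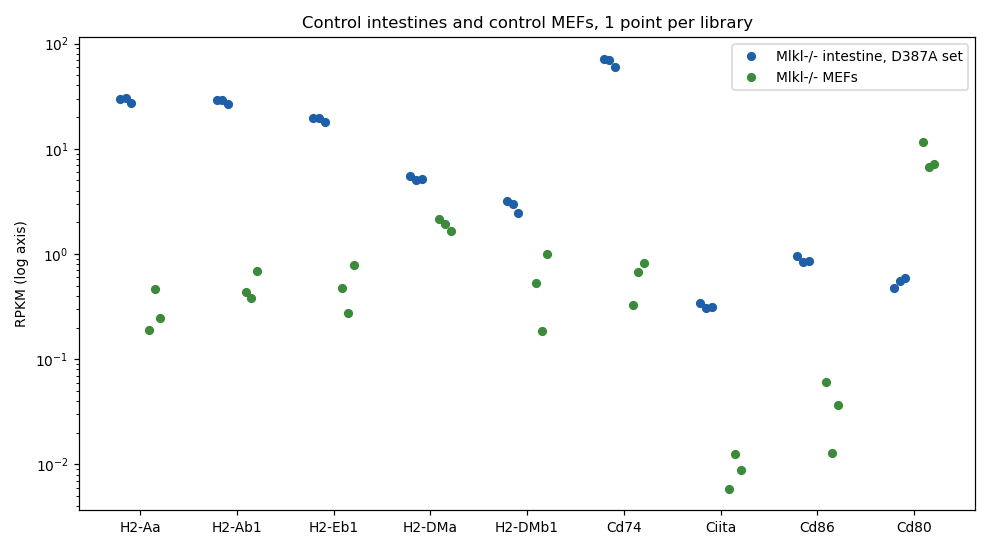
Level of each gene (RPKM, log axis) in the 3 Mlkl-/- intestines of the D387A set (blue) and the 3 Mlkl-/- MEF libraries (green), 1 point per library. Cd80 is the gene that stands higher in MEFs, at 6.77 to 11.6 RPKM against 0.474 to 0.588 RPKM, while Cd74 is at 0.329 to 0.830 RPKM in MEFs and 59.4 to 71.8 RPKM in intestine.

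Likeness to the class II chains was read across libraries. For each gene the correlation with the mean log2 CPM of H2-Aa, H2-Ab1, H2-Eb1 and Cd74 was computed over the 18 D387A and over the 12 C362A intestines, and 18196 genes were ranked by the lower of the 2 values of Pearson's r. Libraries of a group share a genotype, so r describes these samples alone. The 4 genes make up that mean, so their place at the top is given by it. Of the other 5 members 3 were among the first 15 genes, beside 8 non-members. The 3 were H2-DMb1 (r = 0.953 and 0.792), H2-DMa (0.746 and 0.950) and Ciita (0.723 and 0.822). Cd80 ranked 376 (0.323 and 0.828) and Cd86 7108 (-0.15 and 0.832), so for both costimulatory genes r was higher in C362A than in D387A intestines. The non-members ranked highest were Adamtsl4 (0.732 and 0.894), Rassf5 (0.720 and 0.751), Nmu (0.717 and 0.892), Siglecf (0.713 and 0.807), Fgl2 (0.704 and 0.920), Cmah (0.689 and 0.725), Zc3h12d (0.655 and 0.748) and Car1 (0.652 and 0.807).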

How the data were processed

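RNA of E18.5 intestines and of MEFs was sequenced in 36 libraries. The labels give total RNA and 1 TruSeq kit for all, whereas the study's methods give mRNA kits, with another maker's kit for part of the MEFs. The authors aligned reads to GRCm38/mm10 with GSNAP, kept uniquely mapped reads and deposited raw counts on the exons of each gene, with RPKM values beside them. The counting tool, annotation release and use of strand are not given in the sources used here. Groups came from the labels.

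RPKM was recomputed from the deposited counts with TMM-scaled library sizes and the deposited gene width, and the authors' RPKM column was not used in tests. Each set was fitted separately over all its genotypes with edgeR 4.0.16 in R 4.3.3 (glmQLFit and glmQLFTest) after filterByExpr (minimum count 10, minimum total 15), with a prior count of 0.125. This left 18360 genes in 18 D387A libraries, 19408 in 12 C362A libraries and 15465 in 6 MEF libraries. P-values were adjusted over all genes tested by Benjamini-Hochberg. Differences between sets were tested as interaction contrasts in a joint fit. Intervals are 1.96 standard errors to either side (95%). Ratios of 2 genes were compared by exact permutation in SciPy 1.17.1. The scripts were tested on simulated data.

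The 9 genes and all lists were chosen with earlier results of these data known. All 9 are named. Results for 3 genes of the other lists are not reported here. Each other list gives counts and at most 3 called genes per direction, and the 8 non-members most like the class II chains by Pearson's r are named. The other settings tried were DESeq2 1.42.0, voom from limma 3.58.1, RLE size factors, other filters, a prior count of 2, the 2 groups compared alone, a replicate block and leaving out each replicate. Shares of all genes called were not computed for fits that left out a replicate.

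Depth was 17943524 to 27721024 reads on genes in the D387A set, 21757868 to 31052238 in the C362A set and 20927014 to 32307629 in MEFs, so genes with few reads, such as Ciita, have wider intervals. No pair of libraries agreed within sampling noise (lowest chi-square per gene 5.34). Where same-numbered libraries are not said to share a litter or day, p-values measure the spread between these samples. Deviations of same-numbered libraries correlated above 0.1 in every pair for 2 of 14 comparisons, Casp8 1xDA/1xDA intestines against controls (0.111, 0.22 and 0.202) and MEFs (0.27, 0.31 and 0.181), where the replicate block changed no call among the 9 genes.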

Additional observations from a re-analysis of the deposited data

Results flagged for a closer look

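A test of the difference itself separated 2 effects for 4 of the 9 genes. Loss of caspase-1 changed H2-DMa and Ciita less in D387A than in C362A intestines, by 1.24 (edgeR adjusted p = 0.000411) and 1.83 (edgeR adjusted p = 0.0141) on the log2 scale (2 of 9 genes, against 4.9% of all genes called higher). Without the third cFLIP- and caspase-1-deficient 1xDA embryo these were 1.06 (edgeR adjusted p = 0.000769) and 1.65 (edgeR adjusted p = 0.0313). The change of H2-Aa from controls was lower by 1.55 on that scale, a difference of -1.55 (edgeR adjusted p = 0.0388), in cFLIP-deficient 1xDA than in cFLIP-deficient C362A intestines (1 of 9 genes, against 0.0662% called lower). It was lost in 9 of the fits that left out 1 library, with edgeR adjusted p from 0.0642 to 0.167. The change of Cd80 in cFLIP-deficient 1xDA was higher in intestine than in MEFs by 1.32 (edgeR adjusted p = 0.0159; 1 of the 6 genes with enough reads in both, against 8.08% of all such genes called higher). It was lost by limma-voom (adjusted p = 0.0664) and without the third mutant intestine (edgeR adjusted p = 0.0549). Set, allele and control embryos cannot be told apart in the first 3 of these differences, nor can cFLIP in the first 2, where the D387A genotypes were Cflar-/- and the C362A genotypes kept Cflar. The third compared lines with different Cflar deletions.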

How the results depend on the processing

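RLE size factors and a prior count of 2 changed no count of called members. By limma-voom the count for loss of IFNAR1 was 2, and 0 for the difference between intestine and MEFs. By DESeq2 it was 4 for the difference between both genotypes lacking cFLIP and 2 for that between tissues, and with no filter 3 and 2. In both settings the 2 genes for the difference between tissues were Cd80 and H2-Eb1. H2-Aa, Ciita and Cd86, which had too few reads in MEFs, were among the genes over which these counts were taken. With a mean of at least 50 reads, which leaves out genes of few reads, it was 1 in cFLIP-deficient 1xDA against controls, 1 for loss of caspase-1 in the D387A set and 0 for loss of IFNAR1. With only the 2 groups compared in the fit, loss of IFNAR1 gave 0.

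Under the replicate block loss of IFNAR1 gave 2, with H2-Eb1 at 1.02 (edgeR adjusted p = 0.00143), and no other count of called members moved by over 1.5 times. The study's legends call some Mlkl-/- controls littermates of the mutants, but no source used here ties a replicate number to a litter. The correlations of same-numbered libraries ran from -0.438 to 0.31.

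Leaving out each library in turn gave 1 to 2 called members in cFLIP-deficient 1xDA against controls, 0 to 6 for loss of caspase-1 in the D387A set, 0 to 6 for loss of IFNAR1, 1 to 2 in caspase-1-deficient C362A, 2 to 4 in cFLIP-deficient C362A, 1 to 2 for loss of cFLIP, 0 to 5 for the difference between the genotypes lacking cFLIP and 0 to 2 for that between tissues. Of the members' fold changes in these fits, 990 kept their side of the thresholds, 41 newly passed and 23 no longer passed. A further 8 changed sign by more than the standard error of the full fit. The 990 include smaller changes of sign in genes called in neither fit. Those 8 values ran over the fits as follows. Loss of FADD gave -0.22 to 0.061 for H2-DMa and -0.26 to 0.50 for Cd74, and the difference of caspase-1 loss between sets -0.11 to 0.30 for H2-Ab1 and -0.17 to 0.42 for H2-Eb1, all 4 crossing 0 without the third cFLIP- and caspase-1-deficient 1xDA embryo. H2-DMb1 of caspase-1-deficient C362A intestines ran from -0.049 (without the first C362A control) to 0.33. Loss of cFLIP ran from -0.33 to 0.065 for H2-Aa and from -0.34 to 0.017 for H2-Ab1, both above 0 without the third cFLIP-deficient C362A embryo. The difference between tissues for H2-DMb1 ran from -0.35 (without the third Mlkl-/- MEF library) to 0.70. The cause of these changes was not tested.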
